A study of Homo sapiens with 7 samples.

Results

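The vacuolar proton pump (V-ATPase) subunits described here are the catalytic head of its V1 sector, the central rotor, and 2 accessory subunits of the membrane sector. The genes are ATP6V1A, ATP6V1B1, ATP6V1B2, ATP6V1D, ATP6V1F, ATP6AP1 and ATP6AP2. They were chosen by gene symbol among the non-control spots of the arrays, and all 7 were found among the 36337 gene names that the arrays carry. Of these 7 genes, 6 were detected on all 4 arrays, whereas ATP6V1B1 was not well above background on any array. Among all gene names, 52.5% were detected by the same rule.

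The study used drug-treated cells to ask which stresses give transcriptome changes like those of aneuploid cells, and bafilomycin A1 served as the inhibitor of autophagy. The cells are HCT116, an established human colon carcinoma line that the labels call diploid, in a derivative named HCT116 H2B-GFP that carries a histone fused to a green fluorescent protein. According to the labels, 4 replicate cultures were treated with 10 nM bafilomycin for 30 h in medium with 10% serum, and 100 ng of RNA per culture was hybridized to a single-colour array. A group of 3 untreated cultures of the same derivative was not analysed here, so no value below is a response to the drug, and no test between groups was made.

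The V-ATPase pumps protons into lysosomes, endosomes and secretory vesicles and is made of a soluble V1 sector and a membrane-bound V0 sector. In V1, A and B subunits alternate in a ring that hydrolyses ATP, and the D and F subunits form the rotor that couples this ring to the proteolipid ring of V0. Bafilomycin A1 binds the V0 sector and blocks proton transport. The accessory proteins ATP6AP1 and ATP6AP2 join the membrane sector and take part in its assembly, and ATP6AP2 is also known as the prorenin receptor. The B subunit has 2 isoforms encoded by separate genes: ATP6V1B2 is the widely expressed form, and ATP6V1B1 is best known from the acid-secreting intercalated cells of the kidney and from the inner ear.

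Each gene was read by 1 probe of 60 bases, so that every level below rests on a single stretch of transcript. In GRCh37 coordinates from the files, the ATP6V1A probe lies at chr3:113530539-113530598 on the plus strand and the ATP6V1B1 probe at chr2:71192145-71192204 on the plus strand. The ATP6V1D probe lies at chr14:67804590-67804649 on the minus strand and the ATP6V1F probe at chr7:128505739-128505798 on the plus strand. Both accessory genes are X-linked, with the ATP6AP1 probe at chrX:153664652-153664711 and the ATP6AP2 probe at chrX:40464988-40465047, each on the plus strand. Whether a probe lies in coding sequence or in an untranslated region was not determined here. Through the transcript accession that the files give, 7 of the 7 genes carry the same symbol in RefSeq.

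The probe sequences were compared with those of all other probes on the array, a check that does not cover binding to other transcripts. The whole ATP6V1B1 probe and a stretch of 30 bases from each of 5 other probes follow, 5′ to 3′, with the longest run of bases shared with a probe of any other gene on the array in capitals.
ATP6V1B1: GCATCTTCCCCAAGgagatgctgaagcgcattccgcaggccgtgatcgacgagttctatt
ATP6V1A: tctcccttCACCTGTTACAGAGtttcagat
ATP6V1D: acttttgaGACAACTGTTGCATtttggggt
ATP6V1F: gcttctaggttgctGGGGCTCTGCTGGTTa
ATP6AP1: atcgttttcTGGTGATGTTGTGctaacaat
ATP6AP2: ttacctgtgCCAGAATTAGAAAagggggtt

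For ATP6V1B1 the longest shared run was 14 bases and belonged to a probe for NOXA1, not to the probe of its isoform ATP6V1B2. Shared runs reached 14 bases for ATP6V1A and ATP6V1D, 15 for ATP6V1F and 13 for ATP6V1B2, ATP6AP1 and ATP6AP2. No probe of the 7 genes shared a run of 20 bases or more with another probe, which 5.32% of all probes on the array did. The comparison covers probes on the array and not the transcriptome. Whether the ATP6V1B1 probe also binds the ATP6V1B2 transcript was therefore not tested. The ATP6V1D probe was the only one of the 7 to hold the letters AATAAA, the usual polyadenylation hexamer, on the strand printed, as did 7.88% of all probes.

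All signals are background-subtracted fluorescence intensities, and levels are given as log2 of this signal minus the median of the array. The arrays lay on 1 slide, and 55.6% to 60.4% of their 58717 non-control spots were well above background by the flag of the scanner software. Replicate 3 had the most spots with an outlier flag for the spot or its background, 2249 against 514 to 725 on the other arrays. By flags of the spot alone, 275 to 410 spots per array were marked, so most of the 2249 rest on background flags. On the log2 scale the median signal was 6.27 on the first array, 6.13 on the next pair and 5.99 on the last. No spot was saturated (0 spots), so the bright subunit probes were not capped. Because probes differ in how they bind, the level of 1 subunit was not set against that of another, and no order of the subunits was drawn.

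The array was also checked against cell type markers. Of 11 genes listed as colon epithelium markers, 9 were detected on all arrays, beside 52.5% of all genes. These were EPCAM, CDH1, KRT8, KRT18, KRT19, KRT20, CDX1, CDX2 and LGALS4. VIL1 and CDH17 were well above background on no array. The count is no measure of colon identity, which was not tested. The lists of other cell types were not empty: 3 of 4 leukocyte markers were detected (PTPRC, CD3E and CD79A), beside 52.5% of all genes, and so were 1 of 2 endothelial markers (CDH5) and 1 of 4 fibroblast markers (COL1A1). The normalized log2 signal was 5.73 ± 0.17 for CD79A, -0.34 ± 0.15 for CD3E and -2.07 ± 1.12 for PTPRC (SD, n = 4). The latter pair thus lay below the array median, and CD14 was well above background on 2 arrays. The PTPRC value is the median over its 5 probes, whereas 1 probe suffices for detection, so it need not be the level of a detected probe. COL1A1 and CDH5 lay above the array median, at 2.91 ± 0.26 and 0.83 ± 0.31. Of the detected colon markers, KRT20 (-0.13 ± 0.63) and LGALS4 (-0.61 ± 0.20) lay below it, and the others above. None of these lists was used to select cells or arrays.

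Among the catalytic subunits, ATP6V1A and ATP6V1B2 were well above background on all arrays and ATP6V1B1 on no array. ATP6V1A encodes the A subunit, which carries the ATP-hydrolysing sites. Its signal was 6687, 6800, 9363 and 5559 on replicates 1 to 4. Replicate 3 stood above the other replicates. After normalization its level was 6.64 ± 0.29 (SD, n = 4), and the highest and the lowest array lay 1.54-fold apart. This was the largest SD among the 6 detected subunits, and 76.6% of all detected probes had a smaller one. It rests on replicate 3: without it the SD of ATP6V1A was 0.0893, below that of 4 of the other subunits.

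ATP6V1B2 encodes the widely expressed B subunit, whose nucleotide sites are mostly regulatory, and its probe lies at chr8:20078395-20078454 on the plus strand (GRCh37). Its signal was 1067, 1153, 1136 and 885 on replicates 1 to 4. Replicates 2 and 3 were close together and above the other pair after normalization, deviating from the mean level by 0.13 and 0.10 against -0.12 and -0.11. The level was 3.91 ± 0.13 (SD, n = 4) with a span of 1.19-fold, the smallest span among the detected subunits, and 22.4% of detected probes had a smaller SD.

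For ATP6V1B1, the kidney-type B subunit, the signal was 8.76, 11.2, -0.679 and 1.64 on replicates 1 to 4. The software's error of these values was 4.40, 4.43, 4.16 and 4.47. A signal well above background was at least 21.5, 21.5, 20.8 and 22.3 on the respective arrays, so that ATP6V1B1 stayed below this on every array. It was not absent from all measures, however: on replicates 1 and 2 the spot lay above every negative control spot (100% of 292 and of 296 spots), and the software marked it as positive and significant there. It lay above 93.2% of these controls on replicate 3 and above 95% of 299 on replicate 4, and was not marked. The p-values that the software gave for a difference of the spot from background were 2.4e-07 and 6.7e-11 on the former arrays and 0.671 and 0.341 on the latter, and they rest on the pixels of 1 spot. The 4 replicates thus differed in this mark, and whether their signals differed beyond the stated errors was not tested. No mean was formed from them. On replicates 1 and 2, 29.6% and 33.4% of all non-control spots lay below the ATP6V1B1 spot. Among all gene names, 65.4% had a probe marked as positive and significant on all 4 arrays. Among all probes, 38.9% were well above background on no array.

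**Figure D1:**
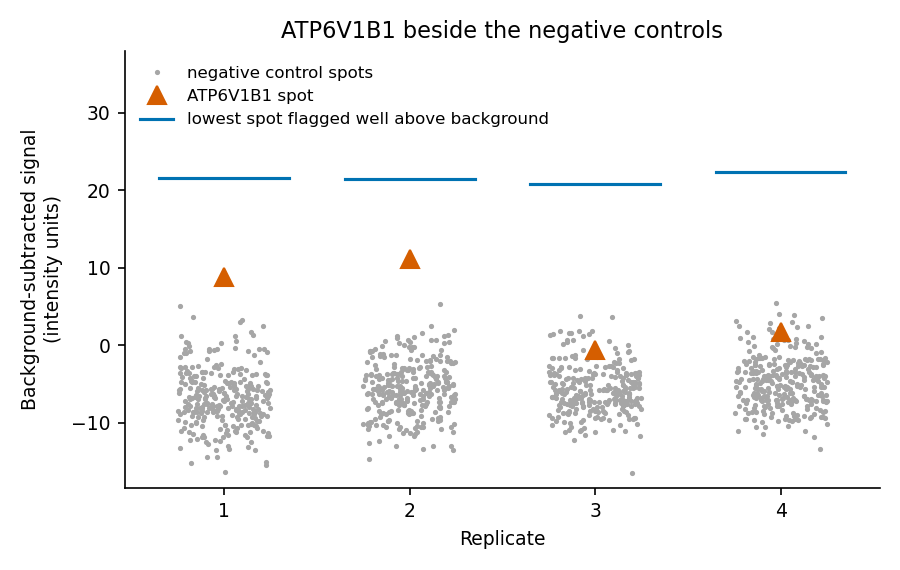
Background-subtracted signal in intensity units (y axis) for each replicate (x axis). Grey points are single negative control spots, triangles are the ATP6V1B1 spot and blue lines mark the lowest signal that the software called well above background; the triangle lies above all grey points on replicates 1 and 2 and among them on replicates 3 and 4, and always below the line.

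Of 4 genes chosen as markers of intercalated cells, the best known site of ATP6V1B1, 2 were detected on all arrays (ATP6V0A4 and SLC4A1). Among all gene names 52.5% were detected, so this count is near that share. FOXI1 was well above background on 1 array and SLC26A4 on none. SLC4A1, with 4 probes, had a normalized log2 signal of -0.31 ± 0.88 (SD, n = 4) and a span of 3.14-fold. ATP6V0A4, the kidney-type a subunit of V0, had a normalized log2 signal of 0.20 ± 0.27 (SD, n = 4), close to the array median.

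Both rotor subunits were detected on all arrays. ATP6V1D, the D subunit that forms the central shaft, gave signals of 1052, 1203, 1184 and 856 on replicates 1 to 4. As for ATP6V1B2, replicates 2 and 3 were the higher pair, at normalized levels of 4.10 and 4.08 against 3.77 on replicate 1 and 3.75 on replicate 4. Its level was 3.93 ± 0.19 (SD, n = 4) and its span 1.27-fold.

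ATP6V1F, the small F subunit bound to this shaft, gave signals of 21193, 20642, 27099 and 20082. Replicate 3 was highest, and the other replicates differed little before normalization. The level was 8.30 ± 0.21 (SD, n = 4), and the span of 1.403-fold lay only just over 1.4-fold, which the study takes as its limit for a changed gene. The limit is used here as a yardstick for replicate spread only.

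Both accessory subunits were detected on all arrays. The SD of ATP6AP1 also rests on replicate 3, without which it was 0.0605. That of ATP6AP2 was 0.0996 without replicate 3 and 0.117 without replicate 1. ATP6AP1, also called Ac45, gave signals of 11714, 11236, 13955 and 9364 on replicates 1 to 4, with replicate 3 again highest. Its level was 7.35 ± 0.19 (SD, n = 4), with a span of 1.35-fold. ATP6AP2 gave mean signals of 2312, 2413, 2629 and 2020, and its level was 5.06 ± 0.14 (SD, n = 4) with a span of 1.25-fold.

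ATP6AP2 was the only one of these genes whose probe was printed 10 times on each array, which separates the error of a spot from that between arrays. On replicate 1 the spots ranged from 1950 to 2565 with a median of 2387, and on replicate 3 from 2178 to 2987 with a median of 2735. Within replicates 1, 2, 3 and 4 the log2 signals of the spots had an SD of 0.14, 0.14, 0.15 and 0.08. On replicate 4, 1 of the 10 spots was marked as an outlier and left out, and that spot was the lowest of all on replicates 1 and 2. The same positions were bright or dim on each array: over the 9 spots with a value on all arrays, the rank correlation (Spearman) of 2 arrays was between 0.633 and 0.933. This is a description of spots that share a probe and a slide layout. In these 9 spots the array means had an SD of 0.14, the spot means an SD of 0.11, and 0.04 was left after both were removed. A single spot would have given an SD between arrays of 0.12 to 0.17, so the replicate spread of ATP6AP2 did not shrink to the residual error when 10 spots were averaged.

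**Figure D2:**
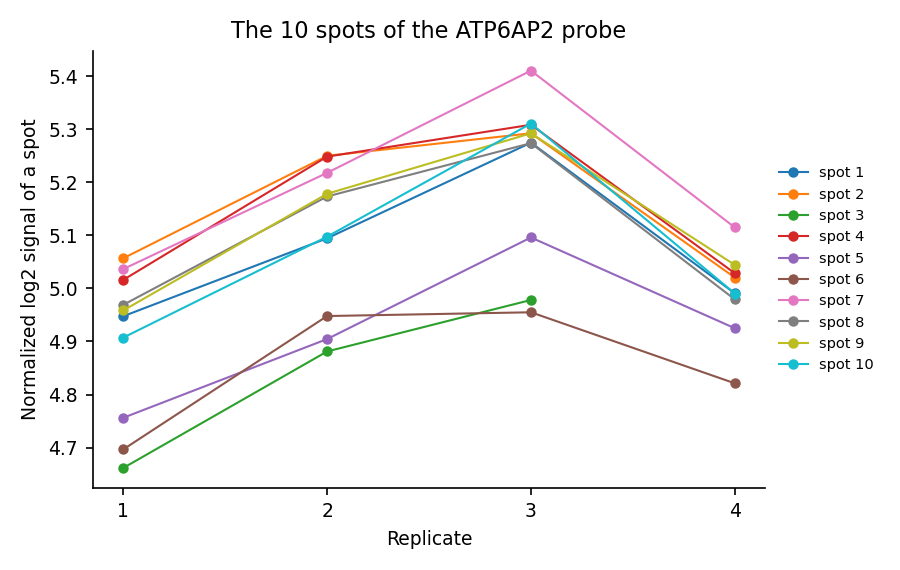
Normalized log2 signal (y axis) of each of the 10 spots of the ATP6AP2 probe on the 4 replicate arrays (x axis); a line joins the values of 1 spot, and replicates have no order. All lines are highest on replicate 3, and spot 3 has no value on replicate 4, where it was marked as an outlier.

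The array holds 902 probes printed 10 times, of which 673 were detected. Their median SD was 0.18 within an array and 0.20 between arrays. For ATP6AP2 the mean SD within an array was 0.13, and 20.1% of these probes had a smaller one, while 23.5% had a smaller SD between arrays.

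The detected subunits shared a pattern between replicates. On replicate 3 all 6 lay above their own mean over the arrays, and on replicate 1 none did (0 of 6). Over all detected probes, 63.3% lay above their own mean on replicate 3 and 43.6% on replicate 1. Replicate 3 was the highest array for 4 of the subunits (ATP6V1A, ATP6V1F, ATP6AP1 and ATP6AP2), beside 50.4% of all detected probes, and replicate 2 for ATP6V1B2 and ATP6V1D, beside 25.1%. The lowest array was replicate 1 for 4 subunits, beside 27.9% of detected probes, and replicate 4 for ATP6V1D and ATP6AP1, beside 34.6%. Averaged over the 6 subunits, the deviations were -0.15, 0.03, 0.24 and -0.11 on replicates 1 to 4, and the SD of this average was 0.18. The median deviation of all detected probes was -0.03, 0.02, 0.11 and -0.10. The average of the subunits therefore lay on the same side as the median probe on every array under this scaling. That did not hold for replicate 2 with normexp and quantile normalization (0.02 against -0.01) or for replicate 4 with centring on detected probes (-0.01 against 0.01), and with the processed signal the deviation on replicate 4 was 0.005. Whether the array itself accounts for their shift was not tested.

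**Figure D3:**
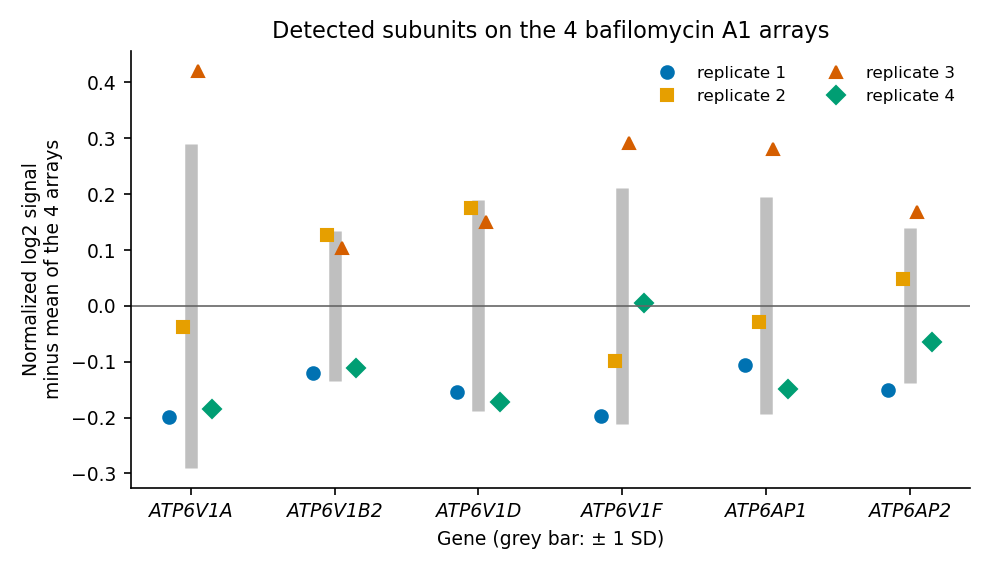
Deviation of the normalized log2 signal from the mean of the 4 arrays (y axis) for the 6 detected subunits (x axis). Symbols are replicates and grey bars span 1 SD to either side; all triangles (replicate 3) lie above 0 and all circles (replicate 1) below, and the SD is largest for ATP6V1A at 0.29.

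Over the 6 subunits the median SD was 0.19 and the median span 1.31-fold, beside a median SD of 0.20 and a median span of 1.36-fold over the 24633 detected probes. In 2 of the 6, ATP6V1A and ATP6V1F, the span was above 1.4-fold, as it was for 43.5% of detected probes. No subunit (0 of 6) had 1 array apart from the rest by Dixon's ratio, which marked 7.3% of detected probes. The software stated an error of 10% for each detected subunit signal, which equals 0.14 on the log2 scale. This percentage hardly varied, from 10 to 10.01 over all of these signals. Whether it matches the error of these spots was not tested. The SD between replicates was above this near-constant value for 4 of the 6 subunits (ATP6V1A, ATP6V1D, ATP6V1F and ATP6AP1). That count is no measure of excess spread. The lower quartile of the SD over all detected probes was also 0.14, so an SD above this stated error was common on these arrays. For ATP6AP2 the stated error is that of single spots, whereas its SD is that of a mean over its spots.

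Without replicate 3 no subunit (0 of 6) spanned more than 1.4-fold and their median SD was 0.10, while over all detected probes 16% did so and the median SD was 0.14. Without replicate 1 the count was 1, beside 34% of detected probes. Scaling had a like effect. With quantile normalization after normexp background correction, 4 instead of 6 subunits lay above their mean on replicate 3, none spanned more than 1.4-fold (0 of 6) and the median SD was 0.08. Under that scaling 16.8% of detected probes spanned more than 1.4-fold. ATP6V1A had the largest SD of the 6 under each of the 4 scalings drawn, ranging from 0.17 to 0.29, but not without replicate 3, where ATP6V1D had the largest at 0.20.

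**Figure D4:**
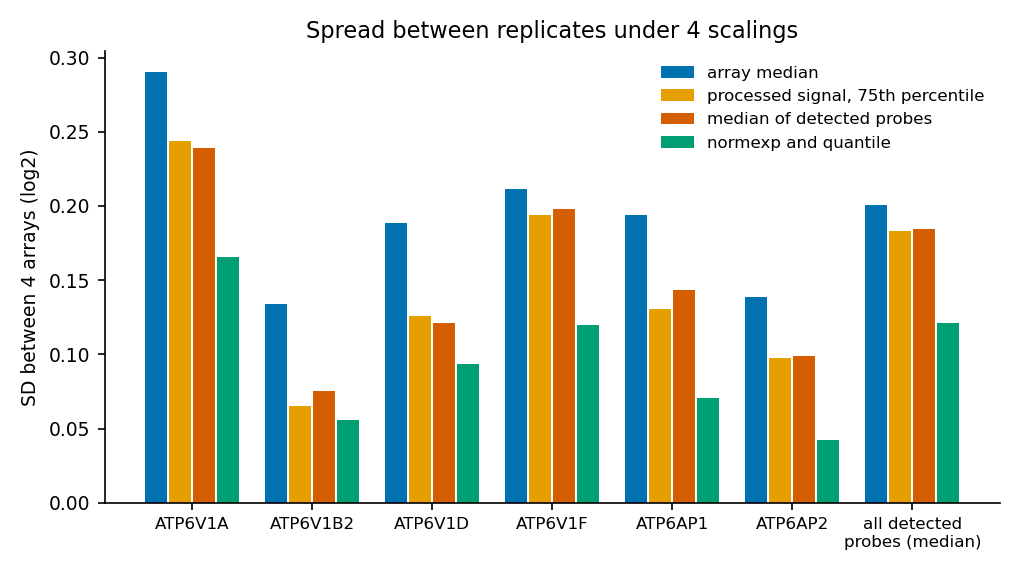
SD of the log2 signal between the 4 arrays (y axis) for each detected subunit and, at the right, the median over all detected probes (x axis). Bars are 4 ways to scale the arrays; the SD is highest with the array median and lowest with normexp and quantile normalization for each subunit, and ATP6V1A is highest under each.

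Ratios of 2 subunits within an array cancel any scaling factor that an array gives to all its spots. Of the 15 ratios among the 6 detected subunits, none (0 of 15) spanned more than 1.4-fold between arrays, and their median SD was 0.14 on the log2 scale. Among all pairs of detected probes 63.5% of ratios spanned more than 1.4-fold. Those pairs were not matched to the subunits in signal level, so the shares are not of like probes. The 15 ratios share 6 probes and are not independent. Those of ATP6V1A to ATP6V1D and to ATP6V1B2 lay just under the limit, at 1.399 and 1.398-fold. The ratio of ATP6V1B2 to ATP6V1D, a head subunit and a rotor subunit, was the steadiest, with an SD of 0.06 and a span of 1.08-fold. Next came the ratio of ATP6V1B2 to ATP6AP2, with an SD of 0.07. The largest SD was that of the catalytic pair, ATP6V1A to ATP6V1B2: relative to its mean it was -0.08, -0.17, 0.32 and -0.07 on replicates 1 to 4, with an SD of 0.22. Without replicate 3 its SD was 0.0515, below the 0.0568 of ATP6V1B2 to ATP6V1D, so this order rests on that array. The ATP6V1A signal relative to that of ATP6V1B2 was thus highest on replicate 3. The ratio of ATP6V1A to ATP6V1D, at -0.04, -0.21, 0.27 and -0.01, was also highest on replicate 3. ATP6V1A and ATP6AP1 kept closer together, with an SD of 0.10.

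**Figure D5:**
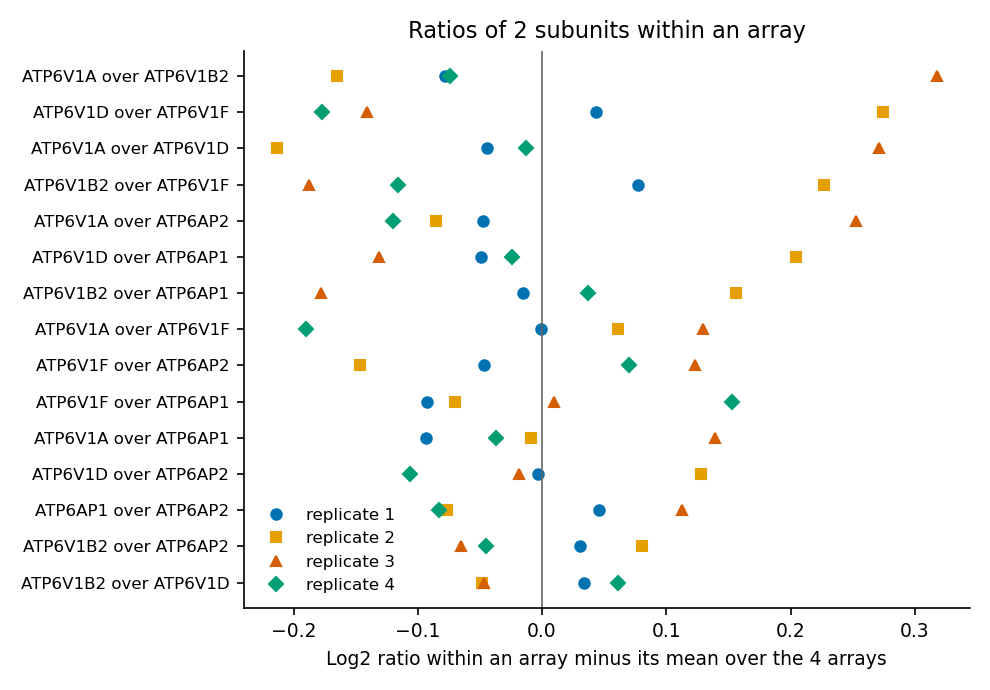
Log2 ratio of 2 subunits on the same array minus its mean over the 4 arrays (x axis) for each of the 15 pairs (y axis), ordered by SD with the steadiest at the bottom. Symbols are replicates; the ATP6V1B2 to ATP6V1D ratio stays within 0.06 of its mean, and the ATP6V1A to ATP6V1B2 ratio reaches 0.32 on replicate 3.

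The remaining genes of the pump were examined by role. Of 25 other pump and assembly genes found on the array, 21 were detected on all arrays, beside 52.5% of all gene names. That share also stands beside the counts by role that follow. The median SD of the detected ones was 0.17, beside 0.21 over all detected genes. In 8 of the 21 the span was above 1.4-fold, beside 46.4% of all detected genes. In the V0 sector, which holds the proton channel and the bafilomycin site, 8 of 9 genes were detected, with ATP6V0D2, an isoform of the d subunit known from osteoclasts, on no array. Of the peripheral stalk genes and the regulatory subunit H, 6 of 8 were detected. The exceptions, named here after their values were seen, were ATP6V1G3, well above background on 1 array, and ATP6V1E1. The ATP6V1E1 spot was well above background on all 4 arrays but had an outlier flag, for the spot or its background, on replicate 3. Of the assembly factors, 6 of 7 were detected, and the other, DMXL2, also named after its value was seen, was well above background on 3 arrays. ATP6AP1L, a relative of ATP6AP1, was detected. The mean over a list varied between arrays with an SD of 0.09 for V0 and for the assembly factors and 0.11 for the stalk, beside 0.18 for the 6 subunits above; the difference was not tested.

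Promoter sequences were matched by symbol for 5 of the 7 genes (not ATP6V1A and ATP6V1B2) and is shown for ATP6V1B1 and ATP6V1F, since they hold the fewest and the most CG pairs of the 5 and 1 was not detected while the other was. The sequences are from RefSeq (GRCh38.p14), cover the 250 bases before the gene start, chr2:70935650-70935899 and chr7:128862606-128862855, are on the plus strand and are written 5′ to 3′ with each CG in capitals.
ATP6V1B1: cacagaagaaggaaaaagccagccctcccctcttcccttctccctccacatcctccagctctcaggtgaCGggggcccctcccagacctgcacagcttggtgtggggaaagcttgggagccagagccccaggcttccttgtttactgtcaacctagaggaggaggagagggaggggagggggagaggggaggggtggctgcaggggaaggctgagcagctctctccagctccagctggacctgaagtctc
ATP6V1F: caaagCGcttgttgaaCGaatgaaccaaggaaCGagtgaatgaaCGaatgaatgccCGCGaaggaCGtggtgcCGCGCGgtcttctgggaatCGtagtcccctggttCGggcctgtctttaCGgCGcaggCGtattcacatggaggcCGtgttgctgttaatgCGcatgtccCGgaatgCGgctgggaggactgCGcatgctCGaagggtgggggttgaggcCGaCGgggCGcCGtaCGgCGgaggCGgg

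The ATP6V1B1 promoter held 1 CG pair, although its GC content of 62.4% was close to the 61.6% of ATP6V1F, which held 28. The promoters of ATP6V1D, ATP6AP1 and ATP6AP2 held 23, 21 and 23. Over 35116 promoters the median was 11, with 1 or none in 14.7% and 20 or more in 32.4%. Among genes on the array with 1 listed promoter, 27.5% (247 of 899) were detected where the promoter held 1 CG or none, 61.8% (2909 of 4706) where it held 2 to 19, and 84.4% (3840 of 4552) where it held 20 or more. These 5 genes thus fell in the classes in which most genes shared their detection call, which is a description of the sequences and not a cause.

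The letters CACGTG, the palindromic core read by E-box factors such as TFEB, were in 0 of the 5 promoters, beside 6.345% of all promoters. TATAAA, searched on both strands, was likewise in none (0 of 5), beside 10.72%. CCAAT, on either strand, was in those of ATP6AP1 and ATP6AP2, beside 32.01% of all. These counts say only that the letters are or are not in the window searched.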

How the data were processed

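Each of the 4 bafilomycin arrays was deposited as 1 scanner file written by Agilent Feature Extraction 10.7.3.1 (version per the submitters' processing notes). The deposited signals are intensity values, background-subtracted by the software and not normalized between arrays, and flags and a p-value, for whether a spot differs from its background, stand beside them in the authors' files. Here, control spots and spots with an outlier flag for the spot or its background were left out, the spots of a probe were averaged, log2 was taken and the array median over non-control probes was subtracted; values of 0 or less were dropped on the array concerned. A first run used only the outlier flags of the spot itself (275 to 410 spots per array, 19689 genes detected). The background flags were added after both results had been seen, to follow an earlier description of these data. The rule for a probe was that over 50% of its spots on the array carry the flag for well above background, and a gene was detected when 1 of its probes met this on all 4 arrays. The level of a gene with several probes was the median over all of them, whether detected or not.

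The labels call the replicates separate biological samples of 1 group. With 1 group no test between groups was made, and means with SDs, spans and Dixon's ratio describe the spread; the number of arrays limits the precision. The named genes are the 7 subunits, and of the other pump genes those well above background on no array; ATP6V1E1, ATP6V1G3, DMXL2, ATP6AP1L and detected markers such as ATP6V0A4 are named outside this rule. The members, lists and markers were chosen with earlier results of these data known. Of 33 pump genes listed, 32 were found by symbol (not ATP6V0A2). The methods give another serum content than the labels. Alternatives were the processed signal minus the 75th percentile, normexp with an offset of 50 and quantile normalization (limma 3.58.1, R 4.3.3), only probes well above background, only probes measured on each array, outlying spots kept, another detection flag, the mean over probes and leaving out each array. Tables were computed in Python 3.11.15 (pandas 2.3.3, numpy 2.4.6) and figures drawn in matplotlib 3.10.9.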

Additional observations from a re-analysis of the deposited data

How the results depend on the processing

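No paired analysis was possible because the untreated samples, which share replicate numbers with the treated ones, were not analysed here. The number of subunits detected on all arrays was 6 under every alternative run, and 27 or 28 of the pump genes were detected. Leaving out an array could not change the 6, since ATP6V1B1 was well above background on no array. The number of subunits spanning more than 1.4-fold fell from 2 to 1 with the processed signal minus the 75th percentile and with centring on probes well above background, and to 0 with normexp and quantile normalization, where 38.5%, 38.9% and 16.8% of all detected probes did so. With 1 array left out at a time it ranged from 0 (without replicate 3) to 2, and the share of all detected probes from 16% to 36.7%. Their median SD of 0.19 became 0.13 with the processed signal, 0.0821 with quantile normalization and 0.13 with centring on detected probes, and ranged from 0.10 to 0.21 with 1 array left out. The SD of their mean, 0.18, became 0.12 and 0.0585 under the first and second of these, and ranged from 0.10 to 0.21. By Dixon's ratio 1 array stood apart in 1 subunit, ATP6AP1 on replicate 3, with the processed signal and with centring on detected probes, and in 0 otherwise; chance gives about 5%. The alternative scalings differed in the centre, the distribution or the signal used, and which of these moved the values was not tested. For the arrays left out the cause was not tested either. Centring on detected probes, the outlier flags of the spot alone, the subunit ratios without replicate 3 and the alternatives for Dixon's ratio were chosen after seeing the data. With the flags of the spot alone, 54.2% of genes were detected and the values above stayed within 1 SD of their leave-one-out values, or within 1.5-fold for counts. The order of the subunits by SD changed without replicate 3, where ATP6V1A had 0.0893 and ATP6V1D 0.196.

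Each subunit rests on 1 probe and 4 arrays of 1 condition on 1 slide, so slide and scan could not be examined as batches. Signals near background, as for ATP6V1B1, give no usable level.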
